A study of Mus musculus with 11 samples.

Results

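The liver of newborn mice that were controls in a Notch study was compared between the day of birth (day 0) and day 2 of life, across all genes. The comparison used the arrays titled as controls, 2 from day 0 and 3 from day 2, which are 5 of the 11 arrays of the series. The mutant arrays entered no level or test given here, other than 1 alternative fit. The control pups were mono transgenic for Rosa26-lsl-NICD, an allele in which the intracellular part of Notch lies behind a stop cassette that Cre must remove, and their labels name no Cre, so all 5 samples carried this allele. The mutants also carried Cre driven by the AFP promoter. Their genetic background was hybrid 129 x C57BL/6, and total liver RNA was hybridised to 1-colour Agilent arrays. The labels number the samples of a day but do not say whether each was 1 pup or a pool, so the p-values measure the spread between these samples. Levels are on a log2 scale on which 0 is each array's own 75th percentile of processed intensity, and a difference is day 2 minus day 0 on that log2 scale with its standard error (SE).

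Birth ends the supply of glucose through the placenta and replaces it with milk, a food rich in fat and poor in carbohydrate. The liver then oxidises fatty acids, makes ketone bodies and glucose, and takes up the metabolism of foreign compounds and bile acids. At the same time it is losing its fetal role as a site of blood formation, while hepatocytes still divide.

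The 5 arrays had 75th percentiles of 755 to 975 intensity units, and 63.3% to 67.9% of spots passed the scanner's test for signal over background. Within a day, arrays were correlated across 14737 genes at 0.983 to 0.991, and between days at 0.965 to 0.968. Xist and Y-linked genes marked both day 0 samples and day 2 replicate 3 as male, and day 2 replicates 1 and 2 as female. Sex therefore moved with day, and the difference of the male day 2 array from the day 0 mean is given where it matters. Replicates 1 and 2 of both days shared slides, whereas day 2 replicate 3 lay on a slide with no day 0 control. The liver label fitted the level of Alb, which was saturated on all 5 arrays. Of 19 markers of pancreas, gut, muscle and fat, 10 were not bright enough to be tested and 9 were. Of those 9, Amy2a5 and Fabp2 lay above the 75th percentile on all 5 arrays.

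Of 14897 genes tested with limma, 1237 (8.3%) were higher and 1358 (9.12%) were lower at day 2 at a Benjamini-Hochberg adjusted p under 0.05. The change was at least 2-fold for 471 of the rises and 758 of the falls, and the median difference over all genes was -0.011. In every one of the 2595 called genes the arrays of the days did not overlap, a pattern that 29.7% of all genes tested showed upward and 28.3% downward. Non-overlap by itself places the male day 2 array on the called side (2593 of the 2595), so this count is no check on sex. A fit with pup sex as a covariate gave 601 rises and 1190 falls, and 1086 of the 2595 calls were shared. Scaling shifted the split: with each array centred on its median, which put the median of all genes at 0.188, 1508 rose and 735 fell, and with the 75th percentile of the probes detected on all 5 arrays 1015 rose and 1680 fell. The calls rest on few arrays: a fit with a slide block gave 510 rises and 668 falls, and without day 0 replicate 1 or 2 the calls were 34 and 51, or 23 and 22. Only 33 genes were called in each of the 5 fits that left out 1 array, among them Mettl7b, Nr1d1, Crot, Ehhadh, Lpin1, Scd1, Scd2, Retnlg and Dlk1.

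**Figure D1:**
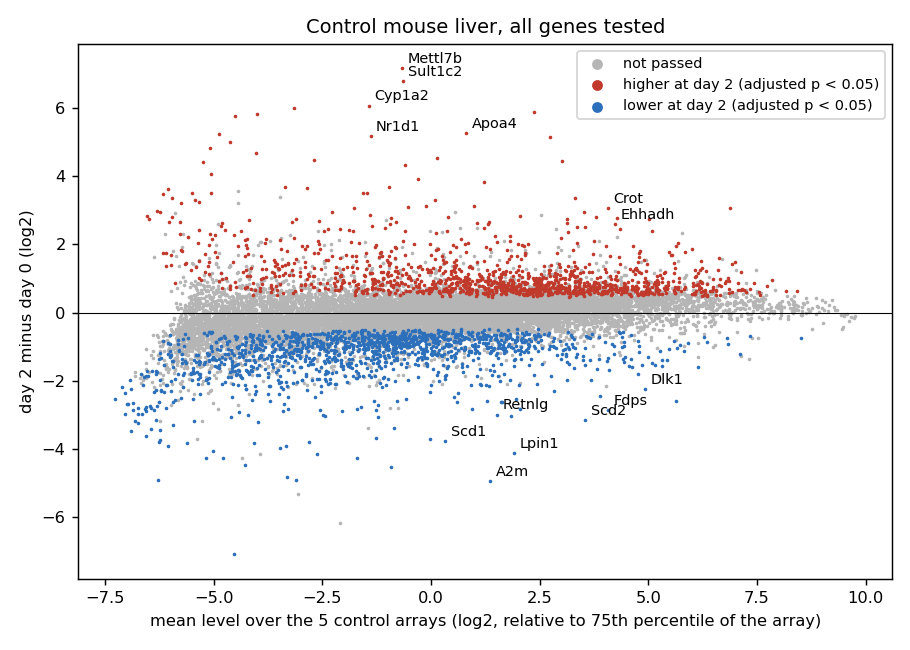
Difference between day 2 and day 0 (log2, vertical axis) against mean level over the 5 control arrays (log2, 0 at an array's 75th percentile, horizontal axis), 1 point per gene, for 14897 genes. Red points are the 1237 genes called higher and blue points the 1358 called lower, with the farthest labelled rise at 7.16 (Mettl7b) and the lowest labelled fall at -4.95 (A2m); Sult3a1, at -7.09, lies lower without a label.

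The largest rises among genes well above background on at least 1 array of each day were in enzymes that modify drugs, steroids and small molecules. Mettl7b, a methyltransferase-like protein of the endoplasmic reticulum, read -5.48 and -4.44 at day 0 and 2.28, 2.09 and 2.22 at day 2. All 3 day 2 arrays stood more than 6 log2 units above both day 0 arrays, and the difference was 7.16 (SE 0.32, 143-fold, limma adjusted p = 0.00306). The sulfotransferase Sult1c2 followed with a difference of 6.78 (SE 0.45, 110-fold, adjusted p = 0.00625), and Cyp1a2, which oxidises caffeine and aromatic amines, with 6.06 (SE 0.66, 66.6-fold, adjusted p = 0.0127). Inmt, an N-methyltransferase for indole amines, read -2.15 and -0.17 at day 0 and 6.00, 5.69 and 2.44 at day 2. Its female arrays were thus far above its male array, and its difference of 5.87 had an SE of 1.25. Gsta2, a glutathione transferase, rose 22.3-fold (adjusted p = 0.00355), with 1 of its 2 day 0 arrays well above background, and Akr1c18, a hydroxysteroid dehydrogenase, rose 21.6-fold (adjusted p = 0.00739). Others in the leading 14 included the steroid sulfotransferase Sult2a2 (35.2-fold), the calcium-binding protein Caln1 (23.1-fold), the carboxylesterase Ces1f (20-fold) and Cyp2b9 (14.3-fold). For Sult2a2 the male day 2 array lay 4.30 above the day 0 mean, and with pup sex as a covariate the calls of Sult2a2, Ces1f and Inmt were lost (adjusted p = 0.0562, 0.0706 and 0.0574). Trehalase, Treh, also ranked there, with 1 of 2 day 0 arrays well above background, and its call was lost with a slide block (adjusted p = 0.0692).

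Further genes rose from levels that were not well above background on either day 0 array, so their folds are lower bounds, set against the dimmest signal above background on each array. The organic anion transporter Slc22a7 was at least 44.2-fold higher, the lubricin gene Prg4 at least 23.1-fold, the Wnt ligand Wnt10a at least 16.2-fold and Cyp1a1 at least 11.96-fold. Sp5, a transcription factor gene that Wnt signalling induces, read -7.92 and -8.13 at day 0 and -2.72, -3.02 and -2.64 at day 2, at least 10.7-fold higher (adjusted p = 0.00252). Slc22a29 was at least 8.36-fold higher, Wfikkn1 at least 5.83-fold and the acyl-CoA synthetase Acsl6 at least 5.14-fold.

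The largest falls among genes well above background on at least 1 array of each day included a plasma protease inhibitor and genes of lipid synthesis. A2m, the protease inhibitor alpha-2-macroglobulin, read 4.39 and 4.27 at day 0 and -0.90, -0.59 and -0.37 at day 2, a fall of 30.8-fold (difference -4.95, SE 0.19, adjusted p = 0.00252). The retinol-binding protein gene Rbp2 fell 22.8-fold. Itgb2l, a beta integrin of neutrophils, fell 19.2-fold (difference -4.27, SE 0.24). Lpin1, a phosphatidate phosphatase that makes diacylglycerol for triglyceride, and Scd1, a stearoyl-CoA desaturase, also stood in the leading 14 and are described with lipid synthesis. Slco4c1, Cpsf4l and Ano9 fell with differences of -4.16, -3.98 and -3.80. Fgfbp1, which binds fibroblast growth factors, Serpina4-ps1 and Tmc7 were also called lower, with 2 of 3 day 2 arrays well above background, and so were Mroh4 and Dnah17, with 1 of 3. Their dim day 2 readings leave the size of these falls uncertain, and the call of Tmc7 was lost with pup sex as a covariate (adjusted p = 0.0998). Other genes fell to levels not well above background on any day 2 array, among them the sulfotransferase Sult3a1, at least 53.5-fold lower, Trim30b, at least 10.7-fold lower, and Minar1, at least 6.31-fold lower. The day 0 arrays of Sult3a1 differed widely, at -2.29 and 1.74.

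Genes of fatty acid oxidation were higher at day 2. Mitochondrial beta-oxidation shortens fatty acids to acetyl-CoA, and 13 of its 23 genes rose and none fell, with a median difference of 0.79 against -0.011 over all genes. Cpt2, the inner-membrane carnitine palmitoyltransferase, read 3.82 and 3.78 at day 0 and 5.10, 5.52 and 5.67 at day 2 (3.1-fold, adjusted p = 0.0153). The carnitine carrier Slc25a20 rose 2.6-fold, the isomerase Eci1 2.27-fold and Etfdh, which passes electrons to the respiratory chain, 2.13-fold. Cpt1a, the outer-membrane enzyme that controls entry of fatty acids, had a difference of 1.37 (SE 0.38) but missed the threshold (adjusted p = 0.0648), and its day 0 arrays read 2.54 and 3.72. Acadm, the medium-chain dehydrogenase, differed by 0.25 (SE 0.16), and the nuclear receptor gene Ppara by -0.34 (SE 0.15), without a call for either. Under the slide block the rises in this list numbered 2, while the median was 0.65 within slide 1 and 0.78 within slide 2.

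Peroxisomal and microsomal genes that PPAR alpha induces, the receptor for fatty acids in liver, were also higher. Of 30 tested, 19 rose and 1 fell, with a median of 1.14 over all arrays, 1.12 within slide 1 and 1.10 within slide 2. Crot, the peroxisomal carnitine octanoyltransferase, read 2.28 and 2.18 at day 0 and 5.22, 5.37 and 5.29 at day 2. The arrays of each day lay within 0.2 of each other, and the rise was 8.37-fold (adjusted p = 0.00252). Ehhadh, the bifunctional enzyme of peroxisomal oxidation, read 2.58 and 2.77 at day 0 and 5.15, 5.26 and 5.38 at day 2 (6.02-fold, adjusted p = 0.00437). The omega-hydroxylases Cyp4a14 and Cyp4a10 rose 8.43-fold and 6.74-fold, and the thioesterases Acot3, Acot2, Acot4 and Acot1 rose 8.75-fold, 6.85-fold, 4.71-fold and 4.25-fold. Lipid droplet genes split: Cidec rose 11.5-fold and Plin2 2.37-fold, whereas Cidea fell 7.08-fold, from -2.18 and -1.01 to -4.39, -4.96 and -3.89. Some known targets were not called, including Angptl4, an inhibitor of lipoprotein lipase (0.09, SE 0.15). A slide block left 14 rises and gave 2 falls.

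For ketone bodies, 3 of 9 genes rose (33.3%, against 8.3% of all genes) and none fell. Bdh1, which interconverts acetoacetate and hydroxybutyrate, rose 2.82-fold (adjusted p = 0.0135) and the transporter Slc16a6 1.76-fold (adjusted p = 0.0226). The hormone gene Fgf21 ranged from -1.39 and -3.94 at day 0 to -1.27, -1.23 and 2.64 at day 2. Its high value was on the male day 2 array alone, and its difference of 2.71 (SE 1.46) was not called. Among respiratory chain genes 12 of 38 rose and 2 fell (median 0.51), with Atp5a1 at 1.96-fold, Uqcrc1 at 1.71-fold and Ndufv1 at 1.63-fold. The coactivator gene Ppargc1b, by contrast, fell 1.98-fold (adjusted p = 0.0342), and Cox7a1, a subunit typical of muscle and heart, fell 1.71-fold. Under the slide block no member of this list rose and 1 fell.

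Genes of lipid synthesis included falls. Of 23 genes for fatty acids and triglyceride, 9 fell and 1 rose, with a median of -0.63. Lpin1 read 4.54 and 4.22 at day 0 and 0.15, 0.30 and 0.34 at day 2 (17.3-fold lower, adjusted p = 0.00252). Scd1 read 2.32 and 2.85 at day 0 and -1.17, -0.98 and -1.39 at day 2 (13.6-fold lower, adjusted p = 0.00461), and its paralog Scd2 fell 8.92-fold (adjusted p = 0.00306). These desaturases introduce the double bond of oleate, and in both every day 2 array lay below both day 0 arrays. Elovl6, which elongates palmitate, fell 7.08-fold, Thrsp, a lipogenic regulator, 6.77-fold, Acacb, which makes the malonyl-CoA that inhibits Cpt1, 6.01-fold, and Acss2, which activates acetate, 4.23-fold. The fatty acid synthase gene Fasn fell 2.7-fold (adjusted p = 0.0261) and the citrate lyase gene Acly 1.98-fold (adjusted p = 0.0498). Srebf1, which encodes the sterol-regulated activator of this pathway, was not called (-0.18, SE 0.19), and Mlxipl, which encodes the carbohydrate-responsive activator, rose 1.81-fold. A slide block left 6 falls.

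Cholesterol synthesis and uptake genes numbered 24, of which 6 fell and none rose, with a median of -0.82. Fdps, which makes farnesyl diphosphate, read 5.96 and 5.62 at day 0 and 1.97, 3.30 and 3.52 at day 2 (7.29-fold lower, adjusted p = 0.0261). Insig1, which holds SREBP in the endoplasmic reticulum, fell 2.86-fold, Dhcr7 2.54-fold and Tm7sf2 1.78-fold. Within this pathway day 2 replicate 1 gave the lowest day 2 reading of Fdps, Dhcr7, Idi1 and Sqle: Sqle, the epoxidase, read 3.53 and 3.55 at day 0 and 1.72, 2.96 and 3.52 at day 2. The median difference was -1.29 within slide 1, -0.74 within slide 2 and -0.46 for the male array. Hmgcs1, the synthase at the start of the pathway, was not called (-0.10, SE 0.32).

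**Figure D2:**
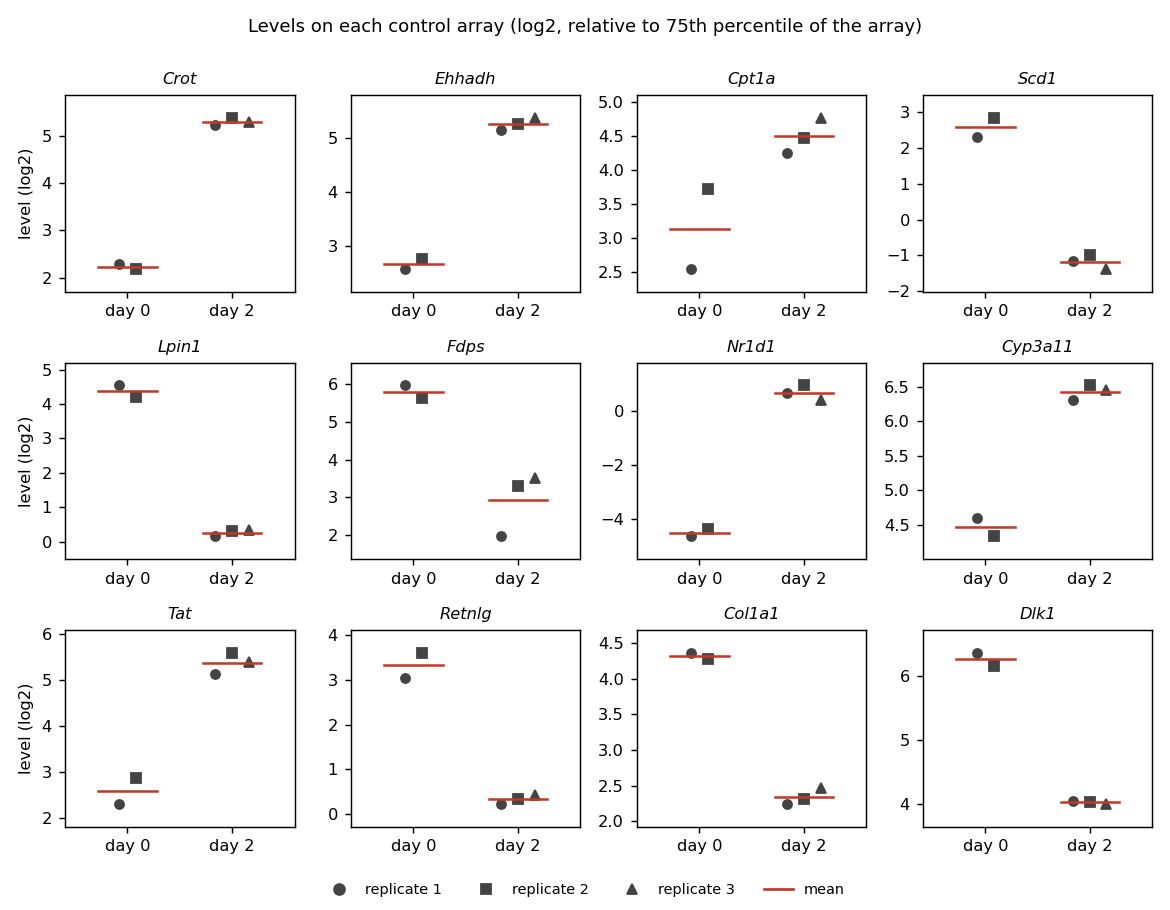
Levels of 12 genes on each control array (log2, 0 at an array's 75th percentile, vertical axes on separate scales) at day 0 and day 2, 1 marker per array, marker shape for the replicate number and a red line for the mean of the day. Of the genes shown, Cpt1a alone was not called, and Fdps at day 2 spreads from 1.97 to 3.52.

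Sterol-regulated promoters often pair a sterol response element with a CCAAT box, the site of the factor NF-Y, and clock-controlled promoters carry E-boxes or D-boxes, the sites of CLOCK with BMAL1 and of DBP. The 250 bases before the RefSeq start (build GRCm38.p6) were therefore searched on both strands for the CCAAT box, for TCACNCCAC as a form of the sterol response element, for the E-box CACGTG and for the D-box TTATGTAA. CCAAT lay in 16 of 19 windows (84.2%) of the cholesterol list, 14 of 26 (53.8%) of the fatty acid list and 12 of 18 (66.7%) of the clock list, against 33.8% of all 32851 windows and 35% of windows of genes tested. These list windows belonged to 16, 18 and 14 genes. A gene with several starts thus counts more than once, and some listed genes had no window. TCACNCCAC lay in 1 cholesterol window (5.26%) and 1.05% of all windows. CACGTG lay in 5 of 18 clock windows (27.8%), 4 of 19 cholesterol windows (21.1%), 4 of 26 fatty acid windows (15.4%) and 6.02% of all, and TTATGTAA in 1 of 18 (5.56%) and 0.819% of all. A match describes letters in these windows only. Shown, 5′ to 3′ on the gene's strand with each match on either strand in capitals, are Insig1 (chr5:28071162-28071411, plus strand) and Fasn (chr11:120824548-120824797, minus strand), which fell, Hmgcs1 (chr13:119690101-119690350, plus strand), which holds the sterol response element and was not called, and Ciart (chr3:95882229-95882478, minus strand) and Per3 (chr4:151044666-151044915, minus strand), clock genes that rose. No match overlapped one of another motif, whereas 2 of the 3 CCAAT matches of Fasn share letters on opposite strands.
Insig1: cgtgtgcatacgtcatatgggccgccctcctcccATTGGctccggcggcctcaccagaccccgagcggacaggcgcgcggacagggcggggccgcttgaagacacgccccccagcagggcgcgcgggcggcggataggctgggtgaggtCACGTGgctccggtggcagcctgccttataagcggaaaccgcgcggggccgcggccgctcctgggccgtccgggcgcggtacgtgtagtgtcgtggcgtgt
Fasn: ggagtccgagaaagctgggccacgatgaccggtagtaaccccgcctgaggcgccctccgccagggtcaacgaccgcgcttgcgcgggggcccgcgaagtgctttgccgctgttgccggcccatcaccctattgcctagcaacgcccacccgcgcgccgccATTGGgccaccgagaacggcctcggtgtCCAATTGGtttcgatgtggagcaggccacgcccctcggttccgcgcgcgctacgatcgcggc
Hmgcs1: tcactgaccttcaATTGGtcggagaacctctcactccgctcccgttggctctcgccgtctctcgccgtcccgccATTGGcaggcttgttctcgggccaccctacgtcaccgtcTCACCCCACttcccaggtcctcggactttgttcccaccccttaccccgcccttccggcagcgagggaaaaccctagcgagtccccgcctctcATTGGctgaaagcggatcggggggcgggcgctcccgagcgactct
Ciart: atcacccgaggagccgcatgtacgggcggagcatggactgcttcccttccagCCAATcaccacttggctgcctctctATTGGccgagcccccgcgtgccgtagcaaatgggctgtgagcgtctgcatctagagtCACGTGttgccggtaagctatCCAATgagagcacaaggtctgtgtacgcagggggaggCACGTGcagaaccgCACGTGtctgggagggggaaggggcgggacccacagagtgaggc
Per3: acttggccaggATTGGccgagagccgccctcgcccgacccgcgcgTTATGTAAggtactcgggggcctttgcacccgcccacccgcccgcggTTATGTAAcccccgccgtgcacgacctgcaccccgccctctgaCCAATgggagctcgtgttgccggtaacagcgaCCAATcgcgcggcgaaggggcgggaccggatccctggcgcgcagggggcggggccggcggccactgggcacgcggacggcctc
Ciart held 3 CACGTG and 3 CCAAT matches, Per3 held 2 TTATGTAA matches, and Hmgcs1 held 3 CCAAT matches on both sides of its sterol response element.

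Of 13 clock genes tested 5 rose (38.5%, against 8.3% of all genes) and 1 fell, and a slide block left 2 rises, Nr1d1 and Dbp. Nr1d1, the repressor REV-ERB alpha, read -4.63 and -4.36 at day 0 and 0.69, 0.95 and 0.40 at day 2, a rise of 36.1-fold (difference 5.17, SE 0.21, adjusted p = 0.00252) that all 3 of its probes shared in direction. Dbp, the D-box activator, read -0.33 and -0.21 at day 0 and 2.58, 2.37 and 1.69 at day 2 (5.58-fold, adjusted p = 0.014). Ciart, whose E-boxes are shown above, rose 3.69-fold (adjusted p = 0.0805 with a slide block), Nr1d2 2.21-fold and Per3 1.61-fold, and Cry1, a repressor of the clock, fell 1.99-fold. Arntl, which encodes BMAL1, was not called (-0.42, SE 0.24), nor was Per2 (-0.70, SE 0.17, adjusted p = 0.0512). The hour of day at which the pups were taken is not given in the sources used here, and 5 samples from 2 days cannot separate an hour from an age.

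For glycolysis 7 of 23 genes fell and none rose (median -0.49), and 4 fell with a slide block. The glucose transporter Slc2a1, typical of fetal tissue and red cells, read 5.62 and 5.09 at day 0 and 2.57, 3.01 and 3.14 at day 2 (5.46-fold lower, adjusted p = 0.0115). Pfkfb3, which makes the activator of phosphofructokinase, fell 5.03-fold, Aldoc 3.25-fold, Pfkfb1 3.22-fold and Hk2 2.13-fold. Genes that low oxygen induces share Slc2a1 and Pfkfb3 with that list: 7 of 23 fell and none rose, including P4ha2 at 5.09-fold lower, Ndrg1 at 3.45-fold and Bnip3 at 2.47-fold, whereas Vegfa was not called (0.48, SE 0.18). Of 24 genes of gluconeogenesis and glycogen 5 rose, 3 fell and 16 did not pass, with a median of -0.00115. The shares were 20.8% higher and 12.5% lower, against 8.3% and 9.12% of all genes. G6pc, the last step of glucose release, rose 3.24-fold (adjusted p = 0.0423), the malate carrier Slc25a10 4.53-fold, the transaminases Got1 3.5-fold and Gpt 2.95-fold, while Fbp1 (0.12, SE 0.13) and Pcx (-0.40, SE 0.15) were not called. Glycogen-targeting subunits of protein phosphatase fell: Ppp1r3b read 1.06 and 0.78 at day 0 and -3.01, -3.11 and -2.09 at day 2 (12.7-fold lower), and Ppp1r3c fell 7.05-fold. The glycogen synthase gene Gys2 was not called (-0.03, SE 0.14), and the phosphorylase gene Pygl fell 1.66-fold. Of 10 galactose and fructose genes 2 rose (20%, against 8.3% of all genes) and none fell. The rises were in galactokinase Galk1 (1.62-fold) and the fructose transporter Slc2a5 (2.56-fold).

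Of 39 genes of amino acid breakdown 12 rose and none fell, with a median of 0.68, and 12 also rose with the slide as a block. Tat, tyrosine aminotransferase, a classical gene of the perinatal liver, read 2.31 and 2.89 at day 0 and 5.15, 5.60 and 5.40 at day 2 (6.88-fold, adjusted p = 0.00892). Ddo, which oxidises D-aspartate, rose 5.23-fold, and the histidine pathway genes Amdhd1, Ftcd and Uroc1 2.39-fold, 2.35-fold and 1.72-fold. Serine dehydratase Sds was not called at a difference of 1.84 (SE 0.50, adjusted p = 0.0617). In the urea cycle list the ornithine carrier Slc25a15 (2.54-fold) and the glutaminase Gls2 (1.88-fold) rose. These were 2 of 13 genes (15.4%, against 8.3% of all genes), and no gene of the cycle rose with a slide block. Its main enzymes had no call, with differences of -0.59 for Cps1 (SE 0.15, adjusted p = 0.052), 0.07 for Otc (SE 0.43), -0.29 for Ass1 (SE 0.13), 0.27 for Asl (SE 0.16) and -0.27 for Arg1 (SE 0.28).

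**Figure D3:**
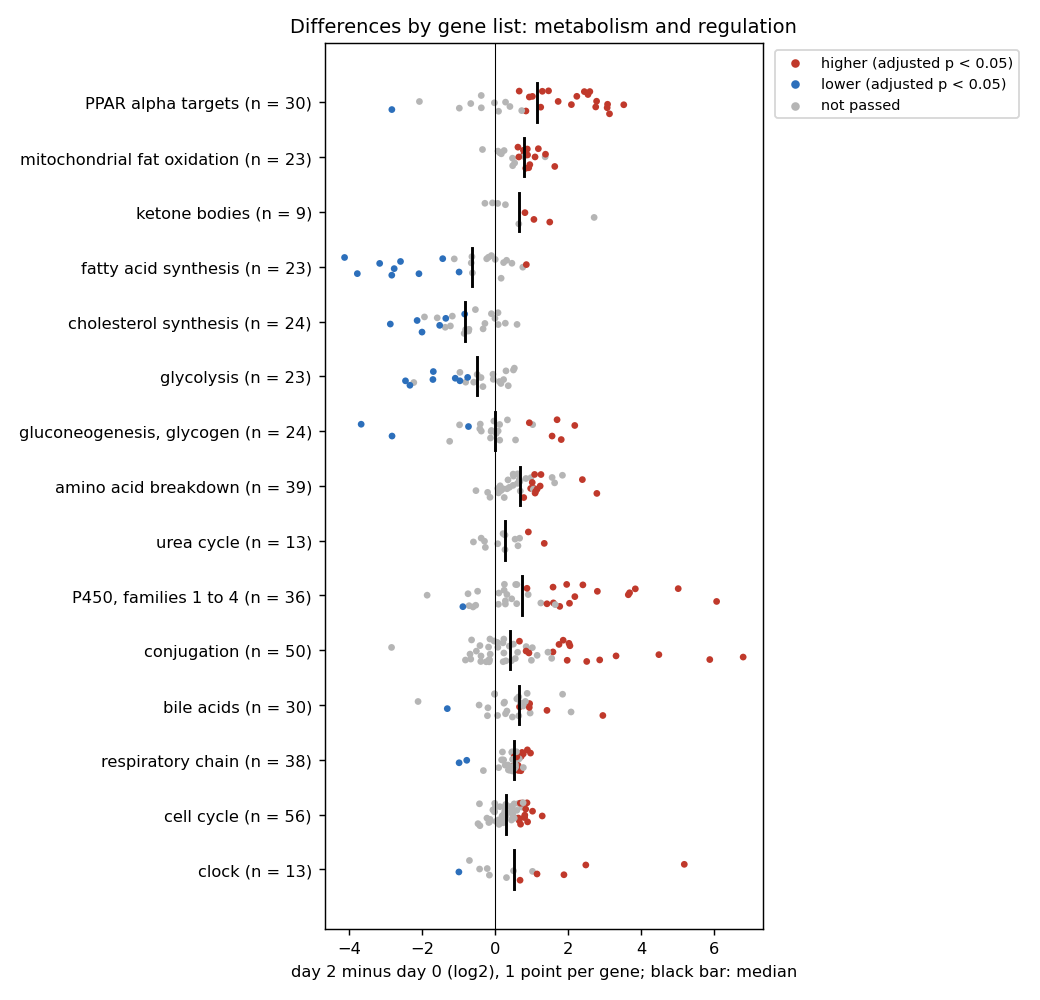
Difference between day 2 and day 0 (log2, horizontal axis) of each tested gene in 15 lists, 1 point per gene, red for genes called higher, blue for lower and grey for not passed, with a black bar at the median of the list. Medians run from -0.82 for cholesterol synthesis to 1.14 for PPAR alpha targets, and lists such as gluconeogenesis and glycogen hold calls in both directions.

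Cytochromes P450 of families 1 to 4, which oxidise foreign compounds, steroids and fatty acids, numbered 36, of which 15 rose and 1 fell (median 0.73). Beside Cyp1a2 and Cyp1a1, Cyp3a44 rose 5.28-fold (adjusted p = 0.00405), Cyp3a25 6.95-fold, Cyp3a11 3.89-fold, Cyp2f2 4.1-fold and Cyp2e1, which oxidises ethanol, 3.41-fold. Cyp3a16, a form known from fetal and newborn liver, rose 1.83-fold, and Cyp2c29 fell 1.84-fold. Cyp2b10, the usual marker of the receptor CAR, read -4.87 and -5.22 at day 0 and -0.72, -1.13 and -2.35 at day 2, and its relatives Cyp2b9 and Cyp2b13 rose 14.3-fold and 12.8-fold. In each of the 3 the male day 2 array was the lowest of its day, at a difference from the day 0 mean of 2.70 for Cyp2b10, 2.93 for Cyp2b9 and 2.81 for Cyp2b13. Genes of the P450, sulfotransferase and glucuronosyltransferase families are close in sequence, and a probe may read more than 1 of them. The receptor genes Nr1i3, which encodes CAR (0.44, SE 0.21), and Nr1i2, which encodes PXR (0.11, SE 0.27), were not called.

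Conjugating and other xenobiotic enzymes numbered 50, of which 15 rose (30%, against 8.3% of all genes) and none fell. Their median was 0.42 over all arrays, 0.42 within slide 1, 0.66 within slide 2 and 0.20 for the male day 2 array. A negative difference was found in 17 members. Ugt2b36, a glucuronosyltransferase, rose 5.68-fold (adjusted p = 0.00461) and its relatives Ugt2b38, Ugt2b5 and Ugt2b37 4.13-fold, 3.36-fold and 3-fold, each on all 3 day 2 arrays. Ugt1a9 was not above background at day 0 and was at least 4.32-fold higher at day 2, whereas Ugt1a1, which conjugates bilirubin, was not called (-0.38, SE 0.42). The epoxide hydrolases Ephx1 and Ephx2 rose 4.06-fold and 3.64-fold.

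Bile acid genes numbered 30, of which 5 rose and 1 fell (16.7% and 3.33%, against 8.3% and 9.12% of all genes). Their median was 0.65 over all arrays and 0.37 for the male day 2 array. Slc51a, a subunit of the basolateral export carrier, read -3.62 and -4.50 at day 0 and -0.83, -1.39 and -1.11 at day 2 (7.71-fold, adjusted p = 0.0124). The export pump Abcc4 rose 1.91-fold, the conjugating enzyme Baat 1.92-fold and the racemase Amacr 2.67-fold, while Cyp27a1, a sterol hydroxylase, fell 2.47-fold. Cyp7a1, the rate-limiting enzyme of bile acid synthesis, read 1.15 and 1.88 at day 0 and -1.49, -0.995 and 0.71 at day 2. Its repressor Nr0b2 read -2.15 and -3.37 at day 0 and 0.24, 0.00 and -2.29 at day 2. In both genes the male day 2 array lay nearest to the day 0 arrays, and neither difference was called (-2.11 for Cyp7a1, SE 0.69, and 2.08 for Nr0b2, SE 0.87). The uptake and export carriers Slc10a1 (-0.01, SE 0.22) and Abcb11 (-0.20, SE 0.43) were not called.

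Few plasma protein genes were called. Among 21 carrier proteins 1 rose and 2 fell, and among 37 coagulation and complement proteins 1 rose and 3 fell, shares near the 8.3% and 9.12% of all genes. The heme carrier Hpx rose 2.28-fold and the corticosteroid carrier Serpina6 fell 1.66-fold. Fga, a fibrinogen chain, fell 3.04-fold (adjusted p = 0.022). Afp, the fetal albumin, was not called, at 9.07 and 9.13 on day 0 and 9.33, 9.14 and 8.95 on day 2, and Alb itself cannot be compared because every spot was saturated. Of 28 acute phase genes 1 rose and 3 fell (3.57% and 10.7%, against the same shares of all genes). Saa3 was 6.52-fold lower and Lcn2 2.9-fold lower. Apoa4, an apolipoprotein of fat transport, read -2.08 and -2.61 at day 0 and 1.20, 2.59 and 4.95 at day 2 (38.3-fold, SE of the log2 difference 1.09, adjusted p = 0.0348), its highest value being on the male array, and Apoc4 and Apoc2 rose 1.81-fold and 1.72-fold. Among 24 genes of iron, metal and bilirubin handling 2 rose and 2 fell, 8.33% each way and near the shares of all genes. Tfr2, the iron sensor, was 2.24-fold higher and Bmp6, an inducer of hepcidin, 2.53-fold lower, whereas hepcidin Hamp was not called (-0.74, SE 0.40).

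Liver transcription factors rose in 1 and fell in 4 of 36 tested (2.78% and 11.1%, against 8.3% and 9.12% of all genes). Onecut1, which directs early hepatocyte and bile duct fates, fell 2.92-fold, Cebpd 2.65-fold, Bcl6 2.43-fold and Foxa1 1.68-fold, and Nr1h3, which encodes the oxysterol receptor LXR alpha, rose 2.12-fold. Hnf4a (0.23, SE 0.23) and Cebpa (-0.23, SE 0.15) had no call. Genes of thyroid hormone and glucocorticoid action split, with 3 of 12 higher and 3 lower (25% each, against the same shares of all genes). Dio1, the deiodinase that thyroid hormone induces, rose 6.71-fold (adjusted p = 0.016), whereas Tsc22d3 and Fkbp5, which glucocorticoids induce, fell 2.26-fold and 2.13-fold, and Crispld2 read -1.04 and -0.34 at day 0 and -3.76, -3.60 and -3.69 at day 2 (7.97-fold lower).

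Of 26 fetal and imprinted growth genes 9 fell and 1 rose, with a median of -0.52, and 5 fell with a slide block. Dlk1, an imprinted membrane protein of hepatoblasts, read 6.36 and 6.16 at day 0 and 4.04, 4.02 and 3.99 at day 2 (4.73-fold lower, adjusted p = 0.00461). Its imprinted neighbour Meg3 fell 2.63-fold, Grb10, an inhibitor of insulin signalling, 2.98-fold, the cell cycle inhibitor Cdkn1c 2.25-fold, Mest 2-fold and Mycn 4.29-fold. Igf2 (0.30, SE 0.15), H19 (0.07, SE 0.15) and Lin28b (0.78, SE 0.20) were not called. Igf1, the growth hormone target, rose 2.57-fold (adjusted p = 0.0174) and its binding partner Igfals 1.72-fold, while Cish, a feedback inhibitor of growth hormone signalling, fell 2.23-fold.

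Of 56 cell cycle genes 13 rose and none fell, with a median of 0.31. Many of those called serve DNA replication: Ccne1 rose 2.44-fold, thymidylate synthase Tyms 2.03-fold, Mcm5 1.85-fold, Mcm6 1.76-fold, Mcm7 1.75-fold, Mcm4 1.68-fold and Pcna 1.58-fold. Mitotic genes without a call included Mki67 (0.13, SE 0.12), Top2a (0.01, SE 0.19) and Cdk1 (0.09, SE 0.23), whereas the survivin gene Birc5 rose 1.83-fold. The stress kinase gene Plk3 read -0.25 and -0.26 at day 0 and 2.17, 2.69 and 2.20 at day 2 (6.09-fold, adjusted p = 0.00793), and Gadd45b rose 3.92-fold. Immediate early genes went both ways, with Atf3 3.93-fold higher, Maff 8.15-fold lower, Fosl2 3.52-fold lower and Myc 1.76-fold lower. Under the slide block 2 cell cycle genes rose.

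Stress genes showed no common direction. In the integrated stress response and protein folding 3 of 30 genes fell (10%, against 9.12% of all genes) and none rose. Ddit4, an inhibitor of mTOR, fell 3.9-fold, and the chaperones Hspb1 and Hspa1a fell 2.93-fold and 2.38-fold. Of 20 antioxidant genes 7 rose and 1 fell (2 and 1 with a slide block), the rises including Srxn1 (2.58-fold), Osgin1 (2.45-fold) and Nqo1 (1.99-fold), targets of the factor NRF2, while Gpx3 fell 2.33-fold. For Sod1, which rose 1.55-fold, 1 of 3 probes had that direction. Among 14 Wnt targets and pericentral genes 3 rose and 1 fell (21.4% and 7.14%, against 8.3% and 9.12% of all genes). Lect2 was 6.73-fold and Sulf2 2.14-fold higher beside Sp5, and Axin2 was not called (0.81, SE 0.35). Of 24 interferon and antigen presentation genes and of 21 autophagy and lysosome genes no more than 1 was called in either direction. These shares were at most 4.76%, against 8.3% higher and 9.12% lower of all genes.

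Markers of cells other than hepatocytes differed by list, and in whole liver RNA fewer cells of a type and less RNA per cell cannot be told apart. Of granulocyte and monocyte genes 17 of 27 fell and 1 rose (9 and 1 with a slide block), with a median of -1.27 over all arrays, -0.90 within slide 1 and -1.48 within slide 2. Retnlg, of mature neutrophils, read 3.04 and 3.61 at day 0 and 0.23, 0.33 and 0.42 at day 2 (7.97-fold lower, adjusted p = 0.00681). The chemokine receptor gene Cxcr2 fell 7.21-fold, the neutrophil collagenase Mmp8 7.09-fold, Mmp9 4.05-fold, Pglyrp1 3.94-fold and S100a8 3.02-fold. Of the granule genes of precursors, Elane fell 2.41-fold and Prtn3 2.21-fold, and Mpo was not called (-0.44, SE 0.27). Mcpt8, a basophil protease, was the member that rose (3.15-fold). The summed level of the list, a log2 value, was 9.64 to 10.09 at day 0 and 8.88 to 9.07 at day 2, and no member was below background throughout either day.

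**Figure D4:**
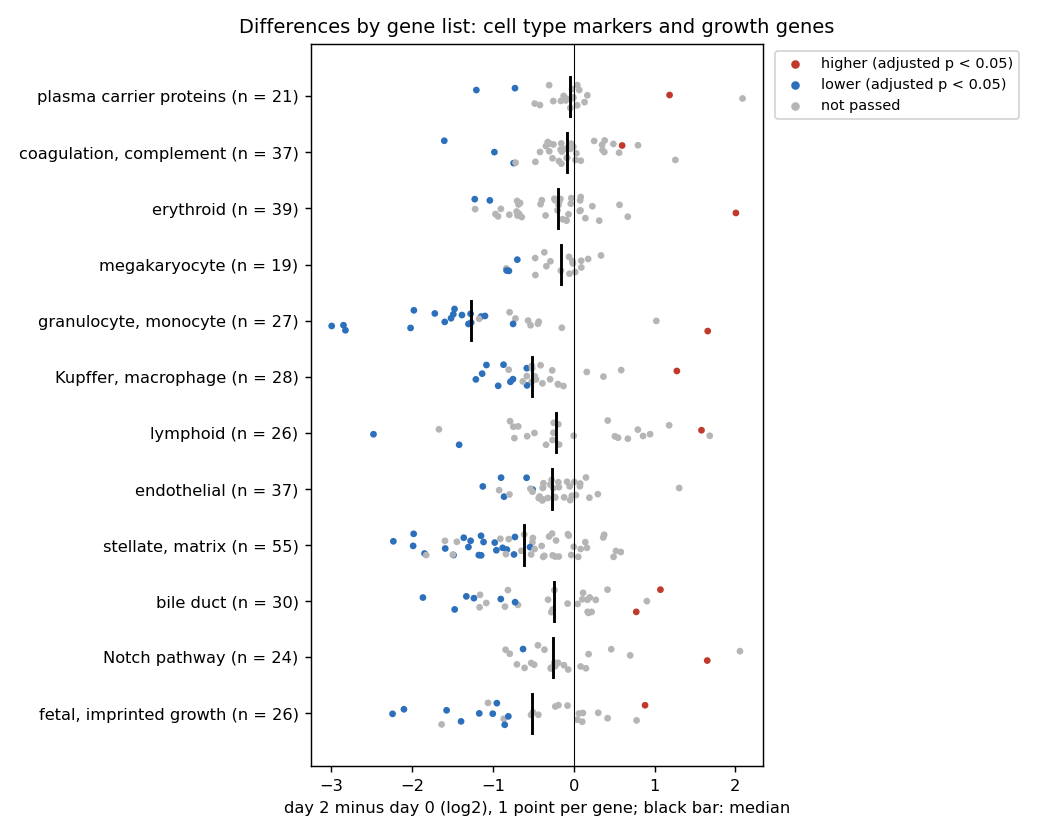
Difference between day 2 and day 0 (log2, horizontal axis) of each tested gene in 12 lists of cell type markers, plasma proteins and growth genes, 1 point per gene, coloured by call, with a black bar at the median. The granulocyte and monocyte list has the lowest median, -1.27, and the plasma carrier proteins lie around -0.04.

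Kupffer cell and macrophage genes followed with 9 of 28 lower and 1 higher (median -0.52). Lyz2 fell 2.32-fold, Fcgr3 2.11-fold, the Kupffer lectin Clec4f 1.91-fold and C1qb and C1qa, complement subunits made by macrophages, 1.72-fold and 1.68-fold. The hemoglobin scavenger receptor Cd163 rose 2.42-fold, from -0.03 and -0.22 to 1.13, 1.21 and 1.13, and Marco (0.59, SE 0.27) and Vsig4 (0.37, SE 0.20) were not called. With the slide as a block 1 member fell and 1 rose. Among lymphoid genes 2 of 26 fell and 1 rose (7.69% and 3.85%, against 9.12% and 8.3% of all genes). The recombinase Rag1 fell 5.57-fold and the cytokine receptor Il7r 2.67-fold, genes of lymphocyte precursors, and Klrd1, of natural killer cells, rose 2.99-fold. Vpreb1, of B cell precursors, was not called (-0.79, SE 0.30).

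Few red cell genes were called. Of 39 erythroid genes 2 fell and 1 rose (5.13% and 2.56%, against 9.12% and 8.3% of all genes). Their median was -0.20, which lay closer to 0 when each array was scaled to its median. That scaling shifts all genes alike and put the median of all genes at 0.188, against -0.011 in the main fit. The erythroid list thus stayed below all genes under both scalings. Car1, a carbonic anhydrase of red cells, read 0.74 and 0.87 at day 0 and 2.59, 2.76 and 3.08 at day 2 (4.02-fold, adjusted p = 0.00994). The embryonic globin Hbb-bh1 fell 2.34-fold and the factor Nfe2 2.05-fold, whereas Alas2, the heme synthesis enzyme of red cells (-0.90, SE 0.30), and Gata1 (0.57, SE 0.18) were not called. The adult beta globin Hbb-bt was saturated on every array. Of 19 megakaryocyte genes 3 fell (15.8%, against 9.12% of all genes) and none rose, with no call under a slide block. The platelet factor Pf4 was not called (-0.29, SE 0.16). The median of the megakaryocyte list, -0.16, became 0.04 under the median scaling. There the median of all genes was 0.188, so this list too stayed below all genes.

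Matrix and mesenchymal genes were lower in 20 of 55 tested and higher in none (median -0.61). Col1a1 read 4.36 and 4.28 at day 0 and 2.25, 2.31 and 2.47 at day 2 (3.95-fold lower, adjusted p = 0.00654). Fibrillar and microfibrillar collagens fell with it, Col1a2 2.57-fold, Col3a1 2.42-fold and Col6a1 3.01-fold, as did Lox, the enzyme that crosslinks them, 4.7-fold (2 of 3 day 2 arrays well above background), and the proteoglycan Lum 3.6-fold. The mesothelial factor Wt1 fell 3.96-fold. Stellate cell and smooth muscle markers were among those without a call, with Lrat, which stores retinol (-0.06, SE 0.34), Des (-0.38, SE 0.13), Acta2 (-0.26, SE 0.11) and Dcn (-0.22, SE 0.14). The summed log2 level of the list was 8.47 to 8.53 at day 0 and 8.19 to 8.59 at day 2, so that measure overlapped. With the slide as a block 10 fell.

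In endothelial genes 5 of 37 fell (13.5%, against 9.12% of all genes) and none rose, with a median of -0.27, and none fell with a slide block. Lyve1, a hyaluronan receptor of sinusoids, fell 2.18-fold and Angpt2 1.86-fold, but Stab2 (-0.37, SE 0.15), Clec4g (0.30, SE 0.24) and the ligand gene Wnt2 (0.08, SE 0.22) were not called. For bile duct genes 6 of 30 fell and 2 rose (20% and 6.67%, against 9.12% and 8.3% of all genes), and 3 fell with a slide block. Their median was -0.25, at -0.37 within slide 1 and -0.03 within slide 2, and 13 members had a positive and 17 a negative difference. The summed log2 level of the list was higher at day 2, at 8.30 to 8.56 against 8.09 to 8.20 at day 0. Sox9, which marks bile duct cells and their precursors, read -0.79 and -0.94 at day 0 and -2.86, -2.49 and -2.83 at day 2 (3.64-fold lower, adjusted p = 0.00965). The keratins Krt19 and Krt7 fell 2.78-fold and 2.51-fold, whereas Krt18, which hepatocytes also express, and Krt23 rose 1.71-fold and 2.1-fold. Of 24 Notch pathway genes, in pups for which no Cre is named, 1 rose and 1 fell (4.17% each, against 8.3% and 9.12% of all genes). The feedback inhibitor Nrarp read -3.16 and -3.38 at day 0 and -1.68, -1.42 and -1.77 at day 2 (3.14-fold higher, adjusted p = 0.011), and the coactivator Maml1 fell 1.54-fold. The targets Hes1 (0.15, SE 0.14) and Hey1 (-0.70, SE 0.17, adjusted p = 0.0508) were not called. The part that these other cell types had in the hepatocyte results was not tested.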

How the data were processed

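Total liver RNA of 5 control samples was read on 1-colour Agilent arrays with probe positions of build mm8, per the file headers. The authors deposited spot intensity values made with Feature Extraction 9.5.3.1, per the file headers; the processed intensity is background-subtracted within an array. A second deposited table holds log2 values made with RMA per the submitters' processing notes, which served as an alternative. Each of its 11 columns was closest to its own array (lowest correlation 0.9801), and its exact centring is not given in the sources used here.

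Levels were log2 of the processed intensity minus the 75th percentile of the array over non-control spots. A probe was tested if all arrays of 1 day or of both showed it well above background (26198 of 41174 probes), and a gene was read from its tested probe with the highest mean. The days were compared with limma 3.58.1 (lmFit and eBayes, R 4.3.3) with 3 residual degrees of freedom, Benjamini-Hochberg adjustment over 14897 genes and a threshold of 0.05. On simulated data of 14737 genes it recovered 23 of 100 genes given a shift of 1 (log2) and 67 of 100 given a shift of 2, and called 2 unchanged genes. No other genes were shifted there, a far smaller share than the 2595 called in the real data. The adjustment depends on that share, so these recovery rates need not hold for the real fit.

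Genes named were the 14 largest rises and falls with at least 1 array of each day well above background, up to 8 each way with 1 day below background (bounds use the dimmest signal above background on each array), key members and the 6 smallest p of each of 44 lists, and close relatives. Clones, predicted and sex-linked genes were passed over in the first 2 groups. The comparison, lists and rule were chosen with earlier results of these data known. Symbols came through RefSeq accessions, symbols or synonyms, and 8156 probes were left unnamed. The alternatives were other scalings, background correction, filters, probe rule, the deposited table, all 11 arrays, slide as a block, pup sex as a covariate, an intensity trend, and each array left out. Array position on the slide went with day and cannot be told apart from it. The number of arrays limits the precision.

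Same-numbered samples of the days share a slide. Their deviations from the day means correlated at 0.00683 for replicate 1 and 0.138 for replicate 2. The deviations of the 2 day 0 arrays mirror each other (correlation -1), so these values are not separate checks and say little about pairing. The fit without the block is given first, and counts with the block are given for many lists.

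Results of some genes are not reported here.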

Additional observations from a re-analysis of the deposited data

How the results depend on the processing

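The 1237 rises became 454 without a filter on dim probes, 601 with pup sex as a covariate and 471 where a change of at least 2-fold was required. The 1358 falls became 735 with each array centred on its median, 597 without a filter and 758 at 2-fold or more. With the slide as a replicate block 510 rose and 668 fell, and 948 of the 2595 calls were shared. Leaving out 1 array in turn gave 23 to 937 rises and 22 to 1065 falls. The cause of these shifts was not tested, except that fits with an array left out or with a block have fewer degrees of freedom. Of the 2595 called genes, 2549 kept their sign in every one of the 17 alternatives that gave them a value. Since the arrays of the days did not overlap in these genes, leaving out an array could not change a sign. The same holds for the slide block and the sex covariate, so this count is a weak check. Most changes of sign, 40, came with the mean over the probes of a gene. Sod1, at 0.63 as reported, read -0.0106 with the mean over its probes (limma adjusted p = 0.964; 1 of 3 probes rose). The median SE was 0.176, which limits small changes, and spots at saturation give no difference.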

Other observations

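Day 2 replicate 3, the male day 2 sample, stood apart from the other day 2 arrays in several genes of the stress response. Trib3, a pseudokinase that ATF4 induces, read 0.76 and 0.04 at day 0 and -0.46, -0.60 and 2.52 at day 2. Chac1, a glutathione-degrading enzyme of the same response, read -3.17 and -1.87 at day 0 and -4.42, -4.70 and -1.98 at day 2. For Nupr1, a stress-induced nuclear protein, the values were 0.77 on both day 0 arrays and -1.20, -1.25 and 0.11 at day 2. In each of these 3 genes, which were picked after their values were seen, the third day 2 array was the highest of its day, and none was called. Asns, another target of ATF4, ranged only from 5.86 to 6.08 over the 5 arrays.

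Among the markers of gut and pancreas that could be tested, Fabp2, an intestinal fatty acid-binding protein, read 1.54 and 2.16 at day 0 and 3.99, 4.76 and 4.34 at day 2 (5.7-fold higher, limma adjusted p = 0.015). Vil1, Lct and Amy2a5 fell 2.06-fold, 2.49-fold and 3.18-fold.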
